A study of Homo sapiens with 12 samples.

Results

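The transcripts of 31 p53 target genes were followed in A375 melanoma cells treated with vemurafenib, tretinoin or both. The genes were given as a list of known targets of the transcription factor p53, and all 31 were found among the 58347 genes of the deposited count tables. Of these, 30 passed the low-count filter that left 16740 genes for testing. The remaining gene, SPATA18, which takes part in mitochondrial quality control, had at most 2 fragments in any library and was not tested. A375 is an established human melanoma line that carries an activating BRAF mutation, so the results describe 1 cell line. There were 4 groups of 3 replicate libraries, all from cells harvested after 8 h: DMSO vehicle, Tretinoin, Vemurafenib, and Combination, which received both drugs. The labels list a concentration of 5 µM for each group, the vehicle included. Vemurafenib blocks the kinase activity of mutant BRAF, and tretinoin (all-trans retinoic acid) activates the retinoic acid receptors.

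p53 is held at a low level by the ubiquitin ligase MDM2, and stress such as DNA damage releases it to bind DNA and switch on its targets. The products of these targets hold the cell cycle, repair DNA, change metabolism or trigger apoptosis, and some of them feed back to switch p53 off again. In melanoma the output of p53 is commonly held down by MDM2, MDM4 or loss of CDKN2A. Many p53 targets are also driven by other factors, such as FOXO proteins, stress kinases and the MAP kinase pathway that mutant BRAF feeds.

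Between 13510235 and 21534377 fragments were counted per library. Replicates of a group differed by more than counting noise in every pair, with a chi-square per degree of freedom from 2.56 to 8.38 in pairs without Tretinoin replicate 1. That library stood apart, with values of 19.13 and 21.82 against the other Tretinoin libraries. For the p53 target genes, results that rest on it are given with and without it. The labels do not say that the replicates came from separate cultures, so the p-values measure the spread between these libraries, which may be technical. Of the melanocyte markers, SOX10 had no count in any library and TYR was at or near 0, while MITF averaged 17.6 CPM (fragment counts scaled by library size and TMM factor) in DMSO and 32.4 CPM in Vemurafenib. The 9 melanocyte markers summed to 28.2 to 33.1 CPM in DMSO and 46 to 48.8 CPM in Vemurafenib, although PMEL averaged 1.16 and 0.79 CPM. The 4 markers of dedifferentiated melanoma, chiefly AXL, summed to 421 to 514 CPM in DMSO and 341 to 361 CPM in Vemurafenib. The 4 epithelial markers, chiefly KRT14, summed to 12.6 to 16.8 CPM in DMSO, 10.0 to 15.2 in Tretinoin, 29.4 to 32.3 in Vemurafenib and 26.7 to 36 in Combination. The 3 leukocyte markers summed to 0.838 to 2.43 CPM in DMSO, 2.14 to 4.62 in Tretinoin, 2.65 to 3.49 in Vemurafenib and 3.44 to 4.79 in Combination. The melanocyte, dedifferentiated and epithelial lists thus moved with vemurafenib, as many of the genes below did. The leukocyte list was higher with either drug, though its Tretinoin range overlapped that of DMSO. The part of these lists in the differences below was not tested.

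p53 binds as a tetramer to a pair of half-sites of 10 bases each. RefSeq promoter windows (GRCh38.p14), from 250 bases before to 50 bases after a transcription start, were at hand for 25 of the 31 genes, in 38 windows. Only the 250 bases before each start were searched, on both strands. The search was for a p53 half-site pair with a spacer of at most 13 bases, at most 3 mismatches to the consensus over the 20 bases, and the core of each half-site kept. Such a pair was found in 5 of the 38 windows, against 3.75% of all 35114 windows in the table. Genes are put on lists of p53 targets partly because such sites are known near them, so this count is not independent of how the genes were chosen. The sites are shown because SESN1 and FAS rose, AEN fell and RPS27L and GADD45B did not pass the test under vemurafenib with all libraries, so that the letters and the response can be read side by side; capitals mark the half-sites.
SESN1: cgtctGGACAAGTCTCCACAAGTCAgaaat
FAS: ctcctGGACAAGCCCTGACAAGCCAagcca
AEN: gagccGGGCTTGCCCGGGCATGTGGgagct
RPS27L: aggagGGCCTAGAGCAGACAAGCCCgcccc
GADD45B: caGAGCTAGCTGcactcGCCCTTGTCTtt

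The SESN1 stretch lies at chr6:109009013-109009042 on the minus strand, outside annotated exons, with its first capital 49 bases before the start, 3 mismatches and no spacer. That of FAS lies at chr10:88991304-88991333 (plus strand), 122 bases before the start, in non-coding exon sequence of FAS transcripts, with 2 mismatches. That of AEN lies at chr15:88621301-88621330 (plus strand), 34 bases before the start, in non-coding exon sequence of 1 AEN transcript, also with 2 mismatches. That of RPS27L lies at chr15:63157522-63157551 (minus strand), 69 bases before the start, in an exon of 1 transcript, with 3 mismatches. The GADD45B pair, at chr19:2476013-2476041 (plus strand), lies upstream of the gene, 112 bases before the start, with 3 mismatches and a spacer of 5 bases. The pairs with the fewest mismatches thus stood in FAS, which rose, and in AEN, which fell. The 250 bases before the SESN1 start (chr6:109008989-109009238, minus strand) are printed as the surroundings of the site in a gene that rose 1.99-fold with vemurafenib, with the site in capitals.
SESN1 promoter: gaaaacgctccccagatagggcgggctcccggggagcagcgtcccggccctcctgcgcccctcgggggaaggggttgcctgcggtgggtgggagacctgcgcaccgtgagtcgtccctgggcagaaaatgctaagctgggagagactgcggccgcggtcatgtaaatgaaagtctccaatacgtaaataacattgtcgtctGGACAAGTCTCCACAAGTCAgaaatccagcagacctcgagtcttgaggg

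Motifs of other factors were sought in the same 250 bases of each window, on both strands. None of these motifs contains another. The AP-1 motif TGANTCA was in 5 of the 38 windows (6.57% of all windows), at MDM2, FAS, EDA2R and PERP. At MDM2 the same site was counted in overlapping windows. The FOXO motif GTAAACA was in 2 (2.98%), at GDF15 and PERP, and the E-box CACGTG in 3 (6.35%), at CCNG2, GADD45B and EDA2R. The cyclic AMP element TGACGTCA was in 1 window (1.65%), at PPM1D, and the ETS motif CCGGAAG in 2 (8.52%), at FDXR and RPS27L. These matches describe letters in short windows and do not show that a factor binds there.

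Vemurafenib changed most of the p53 target genes, and it moved them in both directions. Relative to DMSO, 15 of the 30 tested genes rose and 9 fell (edgeR quasi-likelihood test, Benjamini-Hochberg adjusted p under 0.05 over all 16740 genes), against 26.4% of all tested genes that rose and 26.3% that fell. The share that fell, 30% of the genes, was thus near that of genes at large, and the share that rose, 50%, was above it. The median log2 fold change of the 30 genes was 0.31, against 0.02 over all genes, with a range from -2.33 for PLK3 to 2.83 for TP53INP1. The Vemurafenib libraries all lay above the DMSO libraries in 16 of the genes and all below in 10, against 30.9% of all genes in each direction. Without Tretinoin replicate 1, whose spread enters the shared fit, 16 rose and 10 fell, as RPS27L and GADD45B were added. In the combination, 17 rose and 9 fell relative to DMSO (27.1% and 26.5% of all genes). The 15 genes that rose with vemurafenib alone all rose here, and 8 of the 9 that fell also fell here, but both comparisons use the same DMSO libraries. When libraries were scaled by total counts alone, the median of all genes moved to 0.21 for vemurafenib and 0.19 for the combination. The split became 19 higher and 5 lower with vemurafenib and 19 higher and 4 lower in the combination. For this scaling and for fits without a library, the shares of all genes called are not given. Those counts thus have no background beside them. In bulk RNA, less transcript per cell and fewer cells that carry it cannot be told apart.

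**Figure D1:**
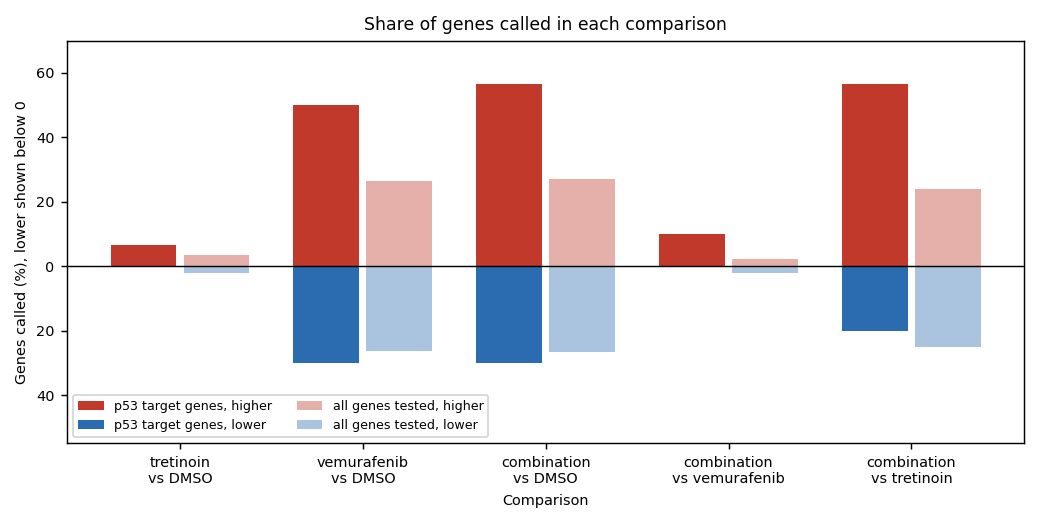
Share of genes called in each comparison, in percent of the genes tested (vertical axis; higher above 0, lower below 0), for the 30 p53 target genes (dark bars) and all 16740 genes (light bars). The 3 comparisons that contain vemurafenib on one side only have 50% to 56.7% of the p53 target genes higher against 24.1% to 27.1% of all genes, while the lower bars reach 20% to 30% against 25% to 26.5% of all genes.

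**Figure D2:**
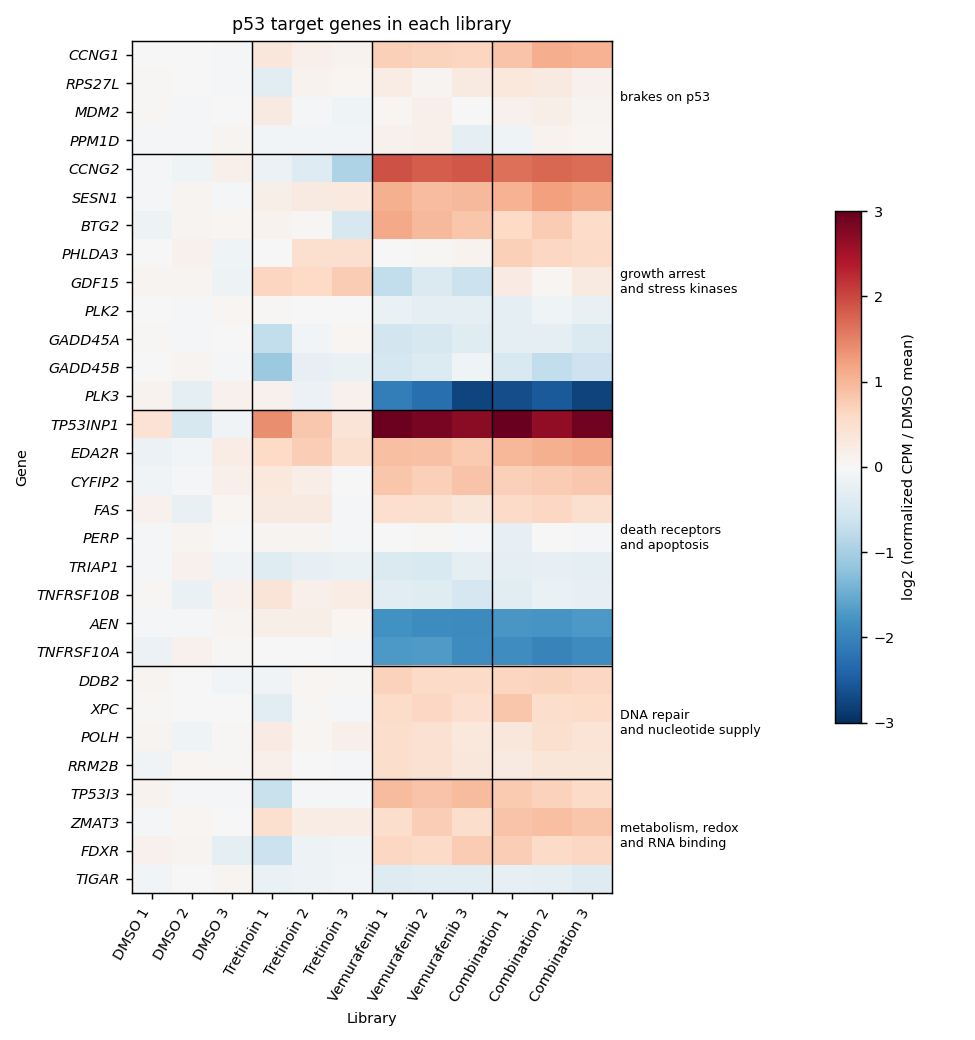
Level of each of the 30 tested genes (rows, grouped by role) in each of the 12 libraries (columns), as log2 of the normalized CPM over the mean of the DMSO libraries (colour, red above and blue below DMSO). The Vemurafenib and Combination columns show mostly the same rows in red and in blue, GDF15 and PHLDA3 excepted, with TP53INP1 and CCNG2 the reddest and PLK3, AEN and TNFRSF10A the bluest, while the Tretinoin columns lie within 0.5 of DMSO in all but 7 rows of replicate 1, 3 of replicate 2 and 2 of replicate 3, with GDF15 past that limit in each.

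The genes are described by role in groups of 4 to 9 tested genes, whose counts are to be read against the 26.4% of all genes that rose and 26.3% that fell with vemurafenib and the 27.1% and 26.5% in the combination. Among the 4 genes grouped by their link to p53 feedback (MDM2, PPM1D, CCNG1 and RPS27L), 1 rose with vemurafenib (25%) and 2 in the combination (50%). None fell. CCNG1 (cyclin G1; chr5:163437569-163446151, plus strand, GRCh38) guides a phosphatase to MDM2 and so activates it. Its level in CPM was 117, 118 and 115 in the DMSO libraries, 148, 130 and 126 with tretinoin, 191, 185 and 184 with vemurafenib, and 211, 251 and 242 in the combination. The 4 groups thus did not overlap, and the Combination libraries were the highest. CCNG1 rose by 0.67 on the log2 scale with vemurafenib (SE 0.08, edgeR adjusted p 9.7e-07) and by 1.01 in the combination relative to DMSO (SE 0.08, adjusted p 6.12e-09). RPS27L, a ribosomal protein relative that binds MDM2, had a log2 difference of 0.20 with vemurafenib (adjusted p 0.0823; 0.0138 without Tretinoin replicate 1) and passed the test in the combination (0.23, adjusted p 0.0391), a call that was lost in 12 of the 20 refits. Those were DESeq2, no filter, the replicate block, and leaving out any DMSO or Vemurafenib library or Combination replicate 1 or 2.

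MDM2 itself, the ligase at the centre of the loop and a textbook readout of p53 activity, did not pass the test in any comparison. It stood at 61, 57.5 and 59.8 CPM in DMSO, 71.2, 58.0 and 54.4 with tretinoin, 62.1, 66.3 and 59.2 with vemurafenib, and 64.5, 67.3 and 63.4 in the combination. The Vemurafenib libraries overlapped those of DMSO, the Combination libraries all lay above them, and the log2 difference was 0.07 with vemurafenib (SE 0.09, adjusted p 0.489) and 0.13 in the combination (SE 0.09, adjusted p 0.209). With total-count scaling these became 0.27 and 0.29, both past the threshold, while the medians of all genes became 0.21 and 0.19. The MDM2 call thus depends on the scaling. Without Tretinoin replicate 1, MDM2 was also higher in the combination than with tretinoin, by 0.21 (adjusted p 0.0159), against 0.09 with all libraries. PPM1D, a phosphatase that dephosphorylates p53 and its activating kinases, ranged from 29.6 to 39.4 CPM over the 12 libraries and was not called in any comparison.

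Of the 9 growth arrest and stress kinase genes, 3 rose and 4 fell with vemurafenib (33.3% and 44.4%, against 26.4% and 26.3% of all genes), and 4 rose and 4 fell in the combination. CCNG2 (cyclin G2; chr4:77157151-77433388, plus strand) is an unconventional cyclin that accompanies cell cycle exit and, unlike CCNG1, is also known as a FOXO target. It stood at 5.86, 5.54 and 6.70 CPM in DMSO, 5.35, 4.65 and 3.18 with tretinoin, 22.9, 21.1 and 22.1 with vemurafenib, and 19.0, 20.1 and 19.2 in the combination. The lowest library with vemurafenib had 19.0 CPM and the highest without it 6.70, and the rise was 3.62-fold with vemurafenib (log2 1.86, SE 0.13, adjusted p 2.11e-09) and 3.20-fold in the combination (log2 1.68, adjusted p 6.93e-09).

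SESN1 (chr6:108986437-109094819, minus strand), a sestrin that restrains the growth kinase complex mTORC1, carries the promoter site printed above. Its CPM were 9.28, 10.1 and 9.02 in DMSO, 10.7, 11.3 and 11.6 with tretinoin, 19.8, 18.0 and 18.4 with vemurafenib, and 19.4, 22 and 20.7 in the combination. The rise was 1.99-fold with vemurafenib (adjusted p 1.24e-07) and 2.20-fold in the combination (adjusted p 1.78e-08), and no library with vemurafenib overlapped one without it. BTG2 (chr1:203305491-203309602, plus strand), an antiproliferative adaptor of the mRNA deadenylase, had 12.8, 15 and 14.9 CPM in DMSO, 15.2, 14.5 and 10.2 with tretinoin, 31.1, 28.1 and 25.4 with vemurafenib, and 21.5, 24.0 and 20.8 in the combination. It rose 1.98-fold with vemurafenib (adjusted p 4.58e-06) and 1.55-fold in the combination (adjusted p 0.000457), and the Combination libraries all lay below those with vemurafenib alone, a difference of -0.35 on the log2 scale that did not pass the test (adjusted p 0.131).

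PLK3 (chr1:44800225-44805990, plus strand), a polo-like kinase that answers to stress and growth signals, showed the deepest fall of the 30 genes. It stood at 24.5, 18.7 and 25.1 CPM in DMSO, 24.9, 20 and 24.7 with tretinoin, 5.40, 4.71 and 3.36 with vemurafenib, and 3.58, 3.95 and 3.30 in the combination. The fall was 5.03-fold with vemurafenib (log2 -2.33, SE 0.16, adjusted p 1.42e-09) and 6.31-fold in the combination (log2 -2.66, SE 0.16, adjusted p 3.04e-10), with a wide gap between the libraries with and without the BRAF inhibitor. Its relative PLK2, on the same list and the more abundant of them, fell by only 0.25 on the log2 scale with vemurafenib (SE 0.06, adjusted p 0.00299) and by 0.20 in the combination (adjusted p 0.0108), calls that were lost with total-count scaling, the second also with no low-count filter. The difference between both kinases was not tested. GADD45A, a stress sensor that activates a kinase of the p38 and JNK cascade, fell by 0.47 with vemurafenib (adjusted p 0.00675) and by 0.33 in the combination (adjusted p 0.0418). Total-count scaling removed both calls, and the latter was lost in 11 of 20 refits, among them those without any one DMSO or Combination library or Vemurafenib replicate 2. GADD45B had a log2 difference of -0.35 with vemurafenib (adjusted p 0.0805), which was called without Tretinoin replicate 1 (adjusted p 0.00322) or Vemurafenib replicate 3 (adjusted p 0.0387), and fell by 0.61 in the combination (adjusted p 0.00457).

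**Figure D3:**
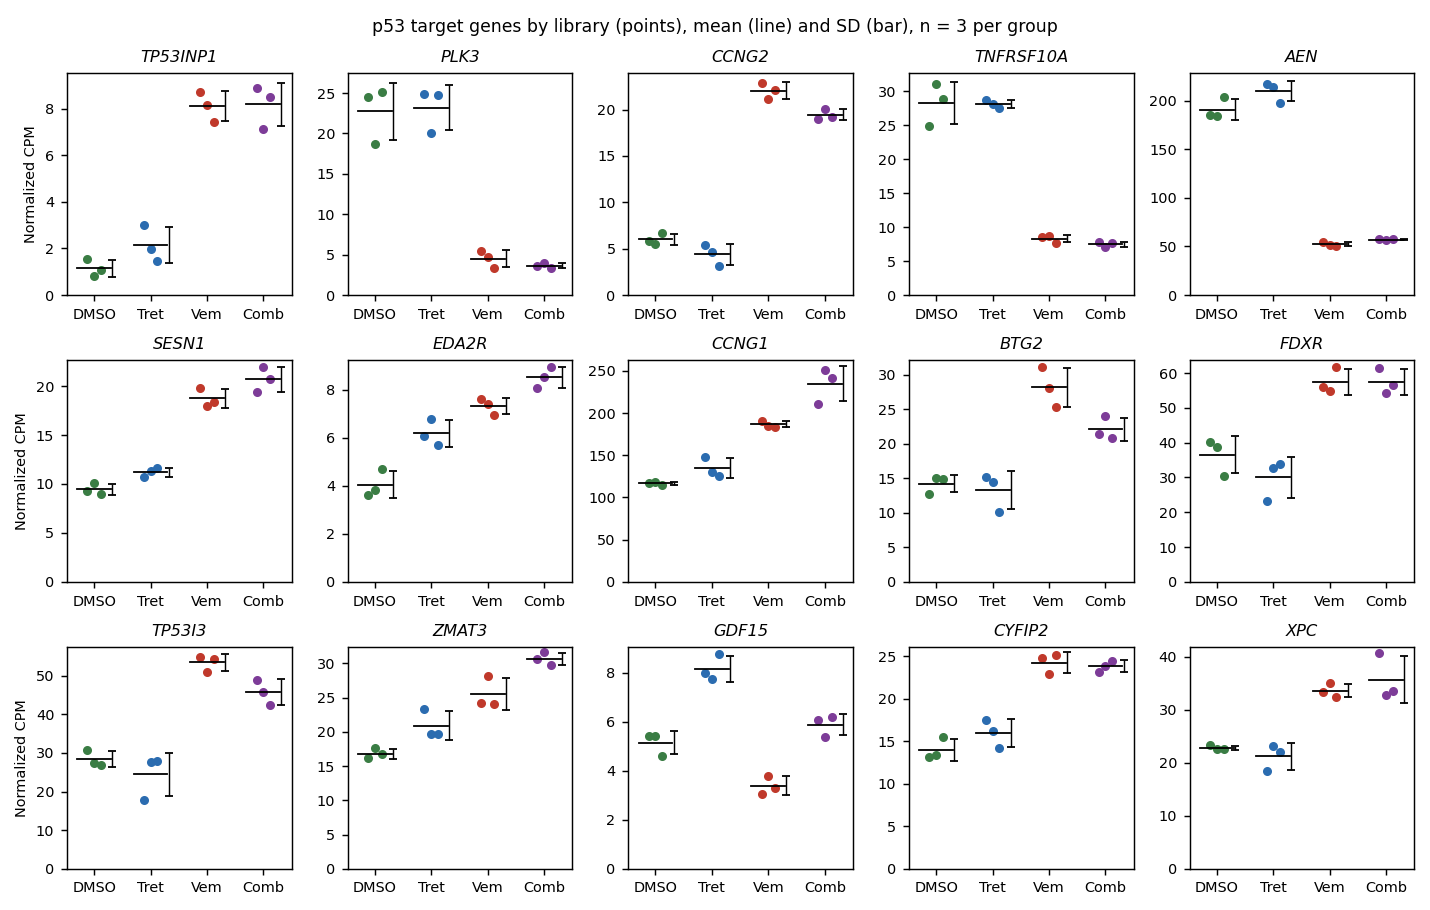
Normalized CPM (vertical axis, from 0) of the 15 p53 target genes with the largest log2 fold changes, in each library (points), with the mean (line) and SD (bar) of 3 libraries per group; Tret, Vem and Comb stand for Tretinoin, Vemurafenib and Combination. In 14 of the 15 panels the libraries with and without vemurafenib do not overlap. The panels were picked by fold change in these same libraries, so such separation follows in part from the choice. The share of all genes separated in this way was not counted. GDF15 is the exception, highest with tretinoin at 7.73 to 8.76 CPM and lowest with vemurafenib at 3.06 to 3.80 CPM.

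The death receptor and apoptosis group had 4 of its 9 tested genes higher and 4 lower (44.4% each), both with vemurafenib and in the combination. TP53INP1, a nuclear stress protein that favours p53 phosphorylation and autophagy, had the largest rise of the 30 genes. It had 1.55, 0.811 and 1.06 CPM in DMSO, 3.01, 1.98 and 1.48 with tretinoin, 8.73, 8.18 and 7.45 with vemurafenib, and 8.91, 7.15 and 8.51 in the combination. It rose 7.11-fold with vemurafenib (log2 2.83, SE 0.23, adjusted p 1.73e-08) and 7.16-fold in the combination (log2 2.84, SE 0.23, adjusted p 1.39e-08). It was also the least abundant tested gene per length in DMSO, at 0.20 RPKM, and its lowest library held 12 fragments.

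The death receptors went different ways. TNFRSF10A, a receptor for the death ligand TRAIL, had 24.9, 31.1 and 28.9 CPM in DMSO, 28.7, 28.1 and 27.6 with tretinoin, 8.52, 8.76 and 7.69 with vemurafenib, and 7.76, 7.02 and 7.61 in the combination. It fell 3.39-fold with vemurafenib (log2 -1.76, SE 0.10, adjusted p 1.54e-10) and 3.80-fold in the combination (log2 -1.93, adjusted p 4.62e-11). The second TRAIL receptor, TNFRSF10B, fell by 0.40 on the log2 scale with vemurafenib (SE 0.09, adjusted p 0.000673) and by 0.25 in the combination (adjusted p 0.0188). Total-count scaling removed both calls, and the second was also lost without DMSO replicate 1 or 3 or Combination replicate 1. FAS (chr10:88990582-89015785, plus strand), the receptor for FAS ligand, moved the other way, with a rise of 0.45 with vemurafenib (SE 0.11, adjusted p 0.00231) and of 0.57 in the combination (adjusted p 0.000272).

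EDA2R (chrX:66595637-66639298, minus strand), a receptor of the same family for ectodysplasin A2, was higher in each treated group than in DMSO. It had 3.61, 3.85 and 4.70 CPM in DMSO, 6.08, 6.80 and 5.70 with tretinoin, 7.64, 7.41 and 6.97 with vemurafenib, and 8.09, 8.55 and 8.96 in the combination. No group overlapped another. The rise was 1.80-fold with vemurafenib (adjusted p 4.95e-05) and 2.09-fold in the combination (adjusted p 2.89e-06). CYFIP2 (chr5:157266079-157395595, plus strand), a subunit of the WAVE complex that builds actin networks, had 13.1, 13.4 and 15.5 CPM in DMSO, 17.5, 16.2 and 14.2 with tretinoin, 24.8, 22.9 and 25.1 with vemurafenib, and 23.1, 23.9 and 24.5 in the combination. It rose 1.73-fold with vemurafenib (adjusted p 2.54e-06) and 1.70-fold in the combination (adjusted p 3.33e-06).

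AEN (chr15:88621296-88632282, plus strand), a nuclease that cuts DNA in dying cells, fell, and binding of p53 to its printed half-site pair was not tested. It stood at 185, 184 and 204 CPM in DMSO, 217, 214 and 198 with tretinoin, 54.5, 51.6 and 50.7 with vemurafenib, and 57.2, 56.3 and 57.5 in the combination. The fall was 3.66-fold with vemurafenib (log2 -1.87, SE 0.07, adjusted p 3.92e-13) and 3.35-fold in the combination (log2 -1.75, SE 0.07, adjusted p 7.91e-13), the smallest p-values among the 30 genes. TRIAP1, a small mitochondrial protein that restrains apoptosis, fell by 0.38 with vemurafenib (adjusted p 0.000534) and by 0.26 in the combination (adjusted p 0.0088), the latter lost with total-count scaling or without DMSO replicate 2. PERP, a desmosome protein, ranged from 52.9 to 67.1 CPM and was called in no comparison. Total-count scaling turned its vemurafenib difference of -0.01 into 0.19 (adjusted p 0.0396), against a median of 0.21 over all genes.

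Of the DNA repair and nucleotide supply genes, 4 of 4 were higher both with vemurafenib and in the combination, against 26.4% and 27.1% of all genes. Each rise was modest, between 0.43 and 0.61 on the log2 scale with vemurafenib. XPC (chr3:14145147-14178783, minus strand), which finds helix-distorting DNA damage, had 23.3, 22.5 and 22.6 CPM in DMSO, 18.4, 23.2 and 22 with tretinoin, 33.4, 35.0 and 32.4 with vemurafenib, and 40.7, 32.7 and 33.5 in the combination. It rose 1.48-fold with vemurafenib (adjusted p 0.000122) and 1.56-fold in the combination (adjusted p 2.76e-05). DDB2, which hands ultraviolet lesions to XPC, rose from a range of 54.9 to 61.3 CPM in DMSO to 85.8 to 92.7 CPM with vemurafenib (log2 0.61, SE 0.07, adjusted p 8.59e-07). POLH, a polymerase that copies past such lesions, rose by 0.43 (adjusted p 0.000715) and RRM2B, a subunit of ribonucleotide reductase that makes deoxynucleotides in resting cells, by 0.44 (adjusted p 0.000157).

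Of the metabolism, redox and RNA-binding genes, 3 of 4 rose (75%) and 1 fell (25%), both with vemurafenib and in the combination. TP53I3 (chr2:24077433-24085861, minus strand), a quinone reductase linked to oxidative stress, had 30.7, 27.3 and 27 CPM in DMSO, 17.9, 27.6 and 27.8 with tretinoin, 54.9, 51.0 and 54.4 with vemurafenib, and 49.0, 45.8 and 42.4 in the combination. It rose 1.89-fold with vemurafenib (adjusted p 4.89e-06) and 1.62-fold in the combination (adjusted p 9.77e-05). FDXR (chr17:74862497-74873031, minus strand), the mitochondrial ferredoxin reductase, had 40.2, 38.9 and 30.5 CPM in DMSO, 23.3, 32.7 and 34.0 with tretinoin, 55.9, 54.8 and 61.8 with vemurafenib, and 61.4, 54.4 and 56.5 in the combination. The rise was 1.58-fold both with vemurafenib (adjusted p 0.000176) and in the combination (adjusted p 0.000165). Tretinoin replicate 1 was the lowest library for both of these genes.

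ZMAT3 (chr3:179017223-179072279, minus strand), an RNA-binding zinc finger protein that acts on splicing, climbed through the groups in the order DMSO, tretinoin, vemurafenib, combination. It had 16.1, 17.6 and 16.7 CPM in DMSO, 23.3, 19.7 and 19.7 with tretinoin, 24.2, 28.2 and 24.1 with vemurafenib, and 30.6, 31.6 and 29.8 in the combination, and no group overlapped the next. It rose 1.52-fold with vemurafenib (adjusted p 3.67e-05) and 1.82-fold in the combination (adjusted p 4.82e-07), while its steps from DMSO to tretinoin (log2 0.31, adjusted p 0.0699) and from vemurafenib to the combination (log2 0.26, adjusted p 0.123) did not pass the test. TIGAR, a phosphatase that turns sugar away from glycolysis, fell by 0.35 with vemurafenib (adjusted p 0.000827) and by 0.30 in the combination (adjusted p 0.00223), both lost with total-count scaling.

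The vemurafenib effect could be measured a second time on other libraries, since Combination against Tretinoin shares none with Vemurafenib against DMSO. Both come from 1 model of all libraries, so their tests share its estimate of the spread. In Combination against Tretinoin, 17 of the 30 genes rose and 6 fell, against 24.1% and 25% of all genes. The Combination libraries all lay above the Tretinoin libraries in 17 genes and all below in 7, against 27.7% and 27.5%. The sign matched in 29 of 30 genes (96.7%), against 81.9% of all 16740 genes. In both comparisons 21 of the 30 genes passed the test, all in the same direction, 15 up and 6 down. Of all 16740 genes, 6409 passed in both, 6390 of them in the same direction. The 6 that fell in both were AEN, GDF15, PLK2, PLK3, TNFRSF10A and TNFRSF10B, and the PLK2 call in Combination against Tretinoin was lost with total-count scaling (adjusted p 0.0925) or no low-count filter (adjusted p 0.0642). TP53INP1 rose 3.89-fold in the presence of tretinoin and 7.11-fold without it, AEN fell 3.68-fold and 3.66-fold, and PLK3 6.41-fold and 5.03-fold. TRIAP1 is a case where the values parted, with 44.1, 47.8 and 49.2 CPM with tretinoin against 47.3, 47.8 and 46.5 in the combination (log2 0.00, adjusted p 0.971). Without Tretinoin replicate 1 the counts were 16 higher and 8 lower, since PHLDA3 and RPS27L were no longer called, MDM2 was added to those higher, and GADD45A and GADD45B to those lower. The calls of PHLDA3 and RPS27L were also lost without Combination replicate 1 or 2, and that of POLH (log2 0.26, adjusted p 0.0238) with no low-count filter or without Tretinoin replicate 2 or 3 or Combination replicate 2 or 3.

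**Figure D4:**
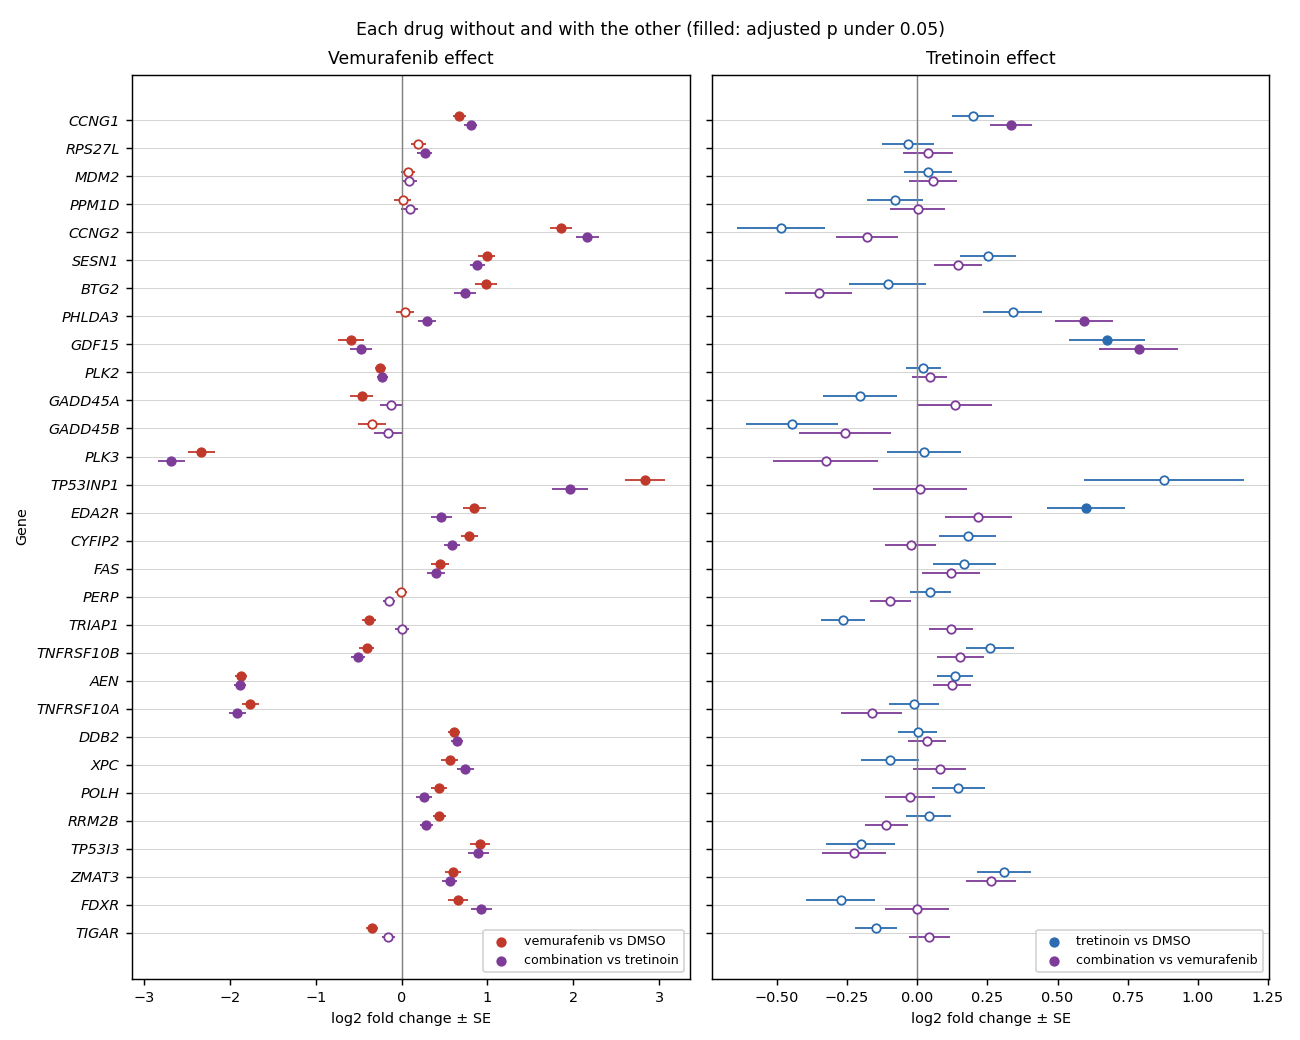
log2 fold change with its SE (horizontal axis) of the 30 tested genes (rows), for vemurafenib without and with tretinoin (left) and for tretinoin without and with vemurafenib (right); filled points have an adjusted p under 0.05, and the horizontal scales of both panels differ. On the left the paired points fall on the same side of 0 in 29 of 30 genes, and on the right most points are open and lie within 0.5 of 0.

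Tretinoin alone changed few of these genes. Relative to DMSO, 2 of 30 rose and none fell in the edgeR test (3.48% and 2.2% of all genes). In that test 12 of the 30 had an unadjusted p under 0.05, against 3915 of all 16740 genes. DESeq2 called 2 genes lower, CCNG2 and TRIAP1, and called 3 higher without shrinkage and 2 higher with a beta prior. The genes that rose in edgeR were GDF15 and EDA2R. GDF15 (chr19:18374731-18389176, plus strand), a stress hormone of the TGF-beta family, had 5.41, 5.40 and 4.59 CPM in DMSO, 7.99, 7.73 and 8.76 with tretinoin, 3.06, 3.80 and 3.30 with vemurafenib, and 6.05, 5.39 and 6.20 in the combination. It rose 1.60-fold with tretinoin (log2 0.68, SE 0.14, adjusted p 0.00602) and fell 1.5-fold with vemurafenib (log2 -0.59, SE 0.15, adjusted p 0.00282). With both drugs the lowest library lay just under the highest DMSO library, and the difference of 0.20 did not pass the test (adjusted p 0.227). EDA2R rose 1.52-fold with tretinoin (log2 0.60, SE 0.14, adjusted p 0.0177), a call that was lost without DMSO replicate 1, DMSO replicate 2 or Tretinoin replicate 2, with adjusted p from 0.0613 to 0.0815, and when only both groups were fitted (0.101).

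Added to vemurafenib, tretinoin raised 3 of the 30 genes and lowered none in the edgeR test (2.27% and 2.2% of all genes). An unadjusted edgeR p under 0.05 was seen in 5 of the 30, against 2375 of all 16740 genes. DESeq2 gave the same counts of calls, 3 and 0. The 3 were GDF15, PHLDA3 and CCNG1. GDF15 was 1.73-fold higher in the combination than with vemurafenib alone (log2 0.79, SE 0.14, adjusted p 0.00189). With all libraries, GDF15 is the only one of the 30 genes that passed the test for tretinoin both without and with vemurafenib, against 252 of all 16740 genes. Without Tretinoin replicate 1, PHLDA3 also passed both. PHLDA3, which blocks the growth kinase AKT at the membrane and is named here after its values were seen, had 117, 131 and 109 CPM in DMSO, 119, 166 and 167 with tretinoin, 118, 121 and 128 with vemurafenib, and 196, 182 and 177 in the combination. It did not pass the test with vemurafenib (log2 0.04, adjusted p 0.746) and was 1.51-fold higher in the combination than with vemurafenib (log2 0.59, SE 0.10, adjusted p 0.0016). CCNG1 was 1.26-fold higher (log2 0.33, adjusted p 0.0126), a call that was lost without Vemurafenib replicate 2 or 3 or Combination replicate 2 or 3, with adjusted p from 0.0578 to 0.0974.

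Tretinoin replicate 1 carries weight in these comparisons. In that library GADD45A was at 27.6 CPM against 43.2 and 47.6 in the other Tretinoin libraries, GADD45B at 13.2 against 24.1 and 24.8, and PHLDA3 at 119 against 166 and 167. Without it, 3 genes rose and 1 fell with tretinoin relative to DMSO, as PHLDA3 (log2 0.48, adjusted p 5.96e-05) and CCNG2 (log2 -0.64, adjusted p 0.0178) were added. Without it, 4 genes were also higher and 1 lower in the combination than with vemurafenib: ZMAT3 (log2 0.26, adjusted p 0.0494) and BTG2 (log2 -0.35, adjusted p 0.0393) were added at nearly the same differences as before. Without Tretinoin replicate 3, TP53INP1 was called higher with tretinoin (log2 1.10, adjusted p 0.0281), GADD45B (log2 -0.59, adjusted p 0.0475) and TRIAP1 (log2 -0.30, adjusted p 0.047) lower, and BTG2 lower in the combination than with vemurafenib (adjusted p 0.0397). TRIAP1 was also called lower with tretinoin without DMSO replicate 3 (adjusted p 0.0482).

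Whether the drugs together departed from the sum of their log2 effects was tested with an interaction term. None of the 30 genes passed in edgeR or in DESeq2 (0.382% of all genes were called higher and 0.424% lower in edgeR). In each tool 2 of the 30 had an unadjusted p under 0.05, against 2619 of all 16740 genes in edgeR. TRIAP1 had an interaction of 0.39 on the log2 scale (SE 0.11, edgeR adjusted p 0.125) and TP53INP1 one of -0.87 (SE 0.33, adjusted p 0.239). For TP53INP1, tretinoin alone gave a difference of 0.88 that did not pass the test (adjusted p 0.0807), and in the presence of vemurafenib the difference was 0.01 (SE 0.17).

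Relatives and regulators of p53 were counted as a list of 13 genes, of which 12 were tested. With vemurafenib 1 gene was higher and 4 lower (26.4% and 26.3% of all genes), and in the combination 2 were higher and 6 lower (27.1% and 26.5%). HIPK2, a kinase that phosphorylates p53 in lethal stress, fell by 1.05 with vemurafenib (SE 0.10, adjusted p 8.51e-08). USP7, the deubiquitinase that stabilises MDM2 and p53, fell by 0.51 (adjusted p 3.66e-06), the checkpoint kinase CHEK1 by 0.39 (adjusted p 5.99e-05) and the ubiquitin ligase RCHY1 by 0.36 (adjusted p 0.00306), while TP53BP1, a DNA break adaptor, rose by 0.54 (adjusted p 1.21e-05). With tretinoin 2 genes of this list rose and none fell in edgeR (3.48% and 2.2% of all genes). Those that rose were the damage kinases ATM (log2 0.38, adjusted p 0.0446) and ATR (log2 0.33, adjusted p 0.0282). Of the 12 tested, 3 had an unadjusted p under 0.05, against 3915 of all 16740 genes.

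A list of 30 other well-known p53 targets, 27 of them tested, was counted beside them. With vemurafenib 9 rose and 10 fell (33.3% and 37%, against 26.4% and 26.3% of all genes), with a median log2 fold change of -0.04, and in the combination 9 rose and 12 fell (33.3% and 44.4%, against 27.1% and 26.5%), with a median of -0.16. CDKN1A, the p21 inhibitor of cyclin-dependent kinases, had 82.6, 79.0 and 84.4 CPM in DMSO and 130, 110 and 115 with vemurafenib, a rise of 1.44-fold (log2 0.53, SE 0.08, adjusted p 1.51e-05). The proapoptotic BCL2 family members parted, as BBC3 rose 1.89-fold with vemurafenib (adjusted p 3.8e-06) and PMAIP1 fell 3.20-fold (adjusted p 1.04e-10), while BAX had a log2 difference of -0.04 (adjusted p 0.778). SESN2, the relative of SESN1, rose 1.75-fold (adjusted p 8.93e-07), and KITLG, the ligand of the receptor KIT, rose 2.53-fold (adjusted p 4.64e-07). The deepest fall was that of IGFBP3, a secreted binder of insulin-like growth factors, from 491, 595 and 529 CPM in DMSO to 34.7, 39.0 and 40.0 with vemurafenib and 56.2, 59.3 and 56.5 in the combination. That was 14.2-fold lower with vemurafenib (adjusted p 1.33e-15) and 9.39-fold lower in the combination (adjusted p 3.31e-15), and IGFBP3 was the 1 gene of this list with an interaction past the threshold (log2 0.69, SE 0.11, adjusted p 0.00568). With tretinoin none of the 27 rose in edgeR and 3 fell (3.48% and 2.2% of all genes). Of the 27, 7 had an unadjusted p under 0.05, against 3915 of all 16740 genes. The 3 that fell were THBS1, an inhibitor of vessel growth (log2 -0.71, adjusted p 0.00208), SAT1 (log2 -0.64, adjusted p 0.0128) and RAP2B (log2 -0.28, adjusted p 0.0465). Fits without Tretinoin replicate 1 are not given for this list either.

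Compared per length of exon, the 30 genes spanned a wide range in DMSO. TRIAP1 had the highest level at 39.3 ± 3.47 RPKM (SD, n = 3), followed by PHLDA3 at 37.9 ± 3.56 and CCNG1 at 37.8 ± 0.592, which differed by less than the SD of the first. PLK2 had 34.7 ± 1.35 and AEN 31.7 ± 1.84, and at the low end CCNG2 had 0.808 ± 0.0803 and TP53INP1 0.20 ± 0.066. In the combination CCNG1 led with 75.8 RPKM and AEN had dropped to 9.47 RPKM.

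Fragments were counted without regard to strand and those over exons of more than 1 gene were dropped, so genes with overlapping neighbours are less certain. Annotated exons of another gene cover 45.6% of the exon bases of TIGAR, 30.4% of XPC, 19.1% of PHLDA3, 16.6% of TNFRSF10A, 9.2% of MDM2, 8.9% of FAS, 7.1% of SESN1 and 6.0% of CYFIP2, and smaller shares of POLH, PLK3, TP53I3 and TNFRSF10B. The neighbour of PHLDA3 lies on the same strand, and TIGAR and MDM2 have neighbours on both strands. The other genes named have them on the opposite strand. Whether this overlap bears on the values of these genes was not tested.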

How the data were processed

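RNA was measured in 12 A375 libraries, 3 per treatment group, grouped by the labels. The authors enriched polyadenylated RNA, made strand-specific paired-end libraries, aligned reads with STAR 2.5.3a to GRCh38.p10 and deposited raw fragment counts per GENCODE 27 gene, made in union mode with strand ignored and without normalization. These counts were used as deposited. Symbols, positions and exon lengths came from GENCODE 29 (58084 of 58347 genes matched). Genes were filtered with filterByExpr by group, scaled by TMM and tested with edgeR 4.0.16 (R 4.3.3; glmQLFit and glmQLFTest, two-sided) in 1 model of all 12 libraries with a term per group, with Benjamini-Hochberg adjustment over 16740 genes and a threshold of 0.05. The standard error is the log2 fold change over the square root of the F statistic. CPM are TMM-scaled, and RPKM are CPM per kilobase of exon. Totals of 13510235 to 21534377 fragments limit precision for low genes. The fit was tested on simulated data. Alternatives were DESeq2 1.42.0 with and without a beta prior, its size factors, total counts alone, other filters, fits of the compared groups alone, a block for the replicate number, each library left out, and a threshold of 0.1. Promoters came from the RefSeq table (GRCh38.p14); shared exon sequence was found with blastn 2.17.0. Genes given in every library are the 15 with the largest absolute log2 fold change among calls, and any others, such as MDM2 and PHLDA3, were chosen after their values were seen. The genes, lists and tests were chosen with earlier results of these data known. A gene of the regulator list is not reported here. Figures were drawn with matplotlib 3.10.9.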

Additional observations from a re-analysis of the deposited data

How the results depend on the processing

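The 30 tested p53 target genes gave 78 calls over the comparisons. In 1560 refits all 78 kept their direction, 1501 refits kept the call, and 16 calls were lost at least once, most often RPS27L (12 refits) and GADD45A (11) in the combination against DMSO. Of the 102 values that were not called, 31 changed sign at least once and 19 were called at least once. For tretinoin against DMSO, the 2 genes higher became 3 with DESeq2 without shrinkage and 4 with total counts or no filter. They became 1 with only the groups compared, 6 at a threshold of 0.1 and 1 to 3 when a library was left out. The 0 genes lower became 2 with DESeq2 in both forms, no filter or a threshold of 0.1, 1 with DESeq2 size factors and 0 to 2 when a library was left out. With total counts, the genes lower numbered 5 for vemurafenib and 4 for the combination against DMSO, instead of 9 each. For the combination against vemurafenib, the 0 genes lower became 2 with only the groups compared and 0 to 1 when a library was left out. The cause of these changes was not tested, except that leaving out a library or fitting fewer groups leaves fewer samples to estimate the spread.

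The replicate numbers did not pair the libraries: the mean correlation of deviations from the group means was -0.03 over 18 pairs with the same number (from -0.14 to 0.09) and 0.02 over 36 others. With the replicate block, 2 and 0 genes were higher and lower for tretinoin, 15 and 9 for vemurafenib, 16 and 9 for the combination against DMSO, 3 and 0 against vemurafenib, 17 and 6 against tretinoin, and 0 and 0 for the interaction. Dixon's test for an outlying library was not applied to groups of 3, and depth limits TP53INP1 and SPATA18 most.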
